A study of Mus musculus with 12 samples.

Results

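The 10 genes described here are Atf4 and 9 genes linked to the integrated stress response that ATF4 directs: Ddit3, Trib3, Chac1, Asns, Psat1, Phgdh, Sesn2, Ddit4 and Xbp1. They were taken by gene symbol from a count table of 21956 mouse genes. The symbols pick out 11 genes of that table, because Ddit3 stands there under 2 Ensembl identifiers. The second record, ENSMUSG00000116429, held too few reads to pass the filter on low counts, so each member is reported from 1 record.

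The libraries hold polyA RNA from mouse brain tissue beside the hematoma, with 3 libraries in each of the 4 groups Sham-Fabp4fl_fl, Sham-Fabp4CKO, ICH-Fabp4fl_fl and ICH-Fabp4CKO. Intracerebral hemorrhage (ICH) was produced by collagenase, an enzyme that breaks down vessel walls, injected into the right striatum, and the ICH tissue was taken at 48 h. Sham animals had the same surgery with no collagenase. All 4 groups carried floxed alleles of Fabp4, a fatty acid binding protein, and the CKO mice also carried Tmem119-creERT2, a tamoxifen-induced recombinase driven by a microglial gene. The CKO mice received tamoxifen on 7 consecutive days and were operated on 14 days after the last injection. Neither the age of the floxed mice nor tamoxifen treatment of the Fabp4fl_fl mice is given in the sources used here, which also do not say whether a library came from 1 mouse, so p-values measure the spread between these libraries. The deletion was directed at microglia, whereas the RNA came from all cells of the tissue, so that fewer cells of a type and less RNA per cell cannot be told apart in any value that follows.

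The integrated stress response begins when a kinase (PERK, GCN2, PKR or HRI) phosphorylates the translation factor eIF2 alpha. General translation then slows, while translation of the Atf4 mRNA rises because of short upstream reading frames in its leader, so ATF4 protein can rise with little change of its mRNA. ATF4 binds C/EBP-ATF response elements (CARE) together with other basic leucine zipper (bZIP) proteins and raises genes for amino acid synthesis, amino acid transport, redox balance and, when stress lasts, cell death. Xbp1 belongs to a parallel branch of the unfolded protein response, in which IRE1 splices its mRNA, and a gene-level count does not separate the spliced from the unspliced form.

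The CARE sequence is shown because it links members of the set by sequence. In RefSeq promoters (build GRCm38.p6, from 250 bases before to 50 bases after each gene's start), the letters TGATGNAA, read on both strands, occurred in 3 of the 10 members, Asns, Chac1 and Trib3. They occurred in 3.97% of all 32851 promoters and, counted by gene as for the members, in 1219 of 27025 genes. In each line below the match is in capitals, and the strand printed is that of the gene. The window of Chac1 covers chr2:119351024-119351081 on the plus strand, and its match begins 193 bases before the start. The window of Asns covers chr6:7693210-7693257 on the minus strand, with the match 23 bases before the start. The window of Trib3 covers chr2:152344031-152344054 on the minus strand, with the match 14 bases after the start. In Chac1 and Trib3 the match reads on the strand opposite to the gene.
Chac1: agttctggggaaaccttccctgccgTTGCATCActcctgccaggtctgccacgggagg
Asns: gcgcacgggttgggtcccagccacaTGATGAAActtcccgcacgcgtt
Trib3: gctcaggtTTACATCAgccgggcg
TGACGTGG, the unfolded protein response element, occurred in 0.676% of the promoters, and the ER stress response element, known by the name ERSE, in 0.119%. No member held either of these letter runs in its window, and neither run overlapped a CARE match shown here.

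Depth ranged from 15650830 to 22406222 total counts per library. A sham and an ICH library stood apart from their own groups. Sham-Fabp4fl_fl library 3 differed from libraries 1 and 2 of its group by a chi-square per degree of freedom of 60.9 and 46.7, but from the 3 Sham-Fabp4CKO libraries by 16.3 to 19.6. ICH-Fabp4CKO library 2 differed from libraries 1 and 3 of its group by 149.8 and 312, from the 6 sham libraries by 85.8 to 99.9 and from ICH-Fabp4fl_fl library 3 by 52.3. Values that moved without either of them are given with the results. The sham library lay nearer the Sham-Fabp4CKO libraries than its own group, and the ICH library nearer the sham libraries. Leaving either out tends to widen those differences, so a call gained in that way is not separate support. Mitochondrial genes took 16.3% of the counts of ICH-Fabp4fl_fl library 1, the highest share of the 12 libraries, against a lowest share of 7.90%. In ICH-Fabp4CKO library 1 only 1 read was counted over 4 Y-linked genes, against 1302 to 2251 in the other libraries. Fabp4 itself had 24 to 63 reads in ICH-Fabp4fl_fl and 3 to 10 in ICH-Fabp4CKO, against 1 to 2 in Sham-Fabp4fl_fl and 0 in each Sham-Fabp4CKO library.

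Across the set, ICH moved the members in opposite directions. In Fabp4fl_fl mice, Ddit3, Trib3, Psat1 and Sesn2 rose and Asns and Chac1 fell, while Atf4, Phgdh, Ddit4 and Xbp1 did not pass the test (edgeR's quasi-likelihood F-test, with p adjusted by Benjamini-Hochberg over all genes tested and a threshold of 0.05). In Fabp4CKO mice the same 4 genes rose and none fell. Asns there had an unadjusted p of 0.0219 and an adjusted p of 0.0566 in edgeR. It was called lower in 4 of 12 alternative fits (other settings or 1 library left out), that of DESeq2, a second count test, among them. The 4 of 10 members that rose in Fabp4fl_fl compare with 26.2% of all 14719 genes tested, and the 2 that fell with 19.3%. In Fabp4CKO the 4 that rose compare with 24.5% of 14737 genes, and the 0 that fell with 11.1%. The members' groups did not overlap for 7 of 10 genes in each genotype, and the same was true of 62.0% of all genes in Fabp4fl_fl and 62.4% in Fabp4CKO. The median log2 fold change of the members was 0.46 in Fabp4fl_fl and 0.18 in Fabp4CKO, against 0.02 and 0.01 over all genes tested.

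Levels are given as CPM (counts scaled to a common library size) after TMM normalization, which makes libraries comparable. Compared per kilobase of exon in Sham-Fabp4fl_fl, Atf4 was the most abundant member with 50.1 ± 9.33 CPM per kb (SD, n = 3). It was followed by Psat1 (41.4 ± 3.46), Asns (40.1 ± 1.20), Phgdh (39.4 ± 2.46) and Xbp1 (30.2 ± 9.91), neighbours whose spreads overlap. Ddit4 (16.5 ± 6.30) and Ddit3 (10.5 ± 1.35) were also within their spread of each other, and Sesn2 (4.29 ± 0.221) lay just above Chac1 (3.81 ± 0.256). Trib3 was by far the scarcest, with 0.411 ± 0.354 CPM per kb.

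**Figure D1:**
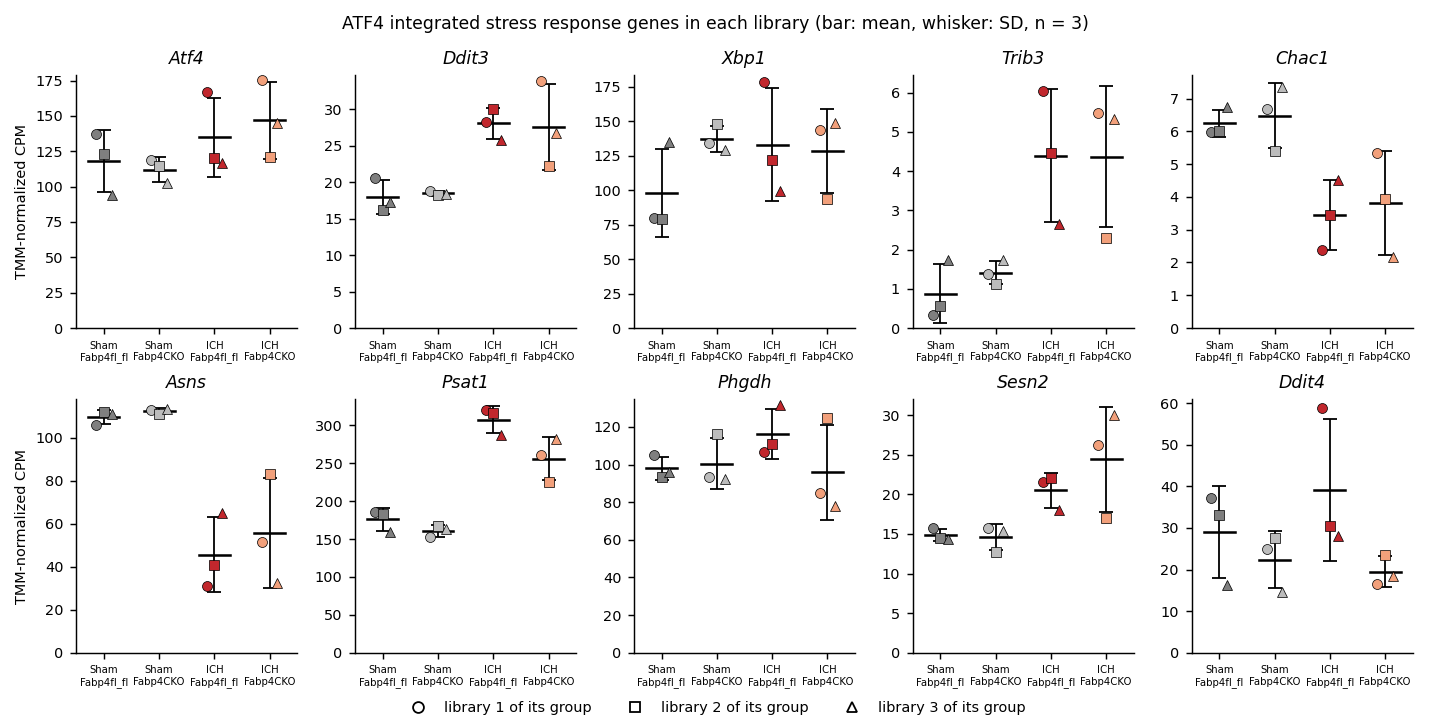
Abundance of the 10 genes in each of the 12 libraries, as TMM-normalized CPM on a linear axis from 0, with points for single libraries, bars for group means and whiskers for the SD (n = 3). Psat1 and Ddit3 lie higher in all ICH libraries than in all sham libraries, Asns and Chac1 lie lower, and Atf4, Xbp1, Phgdh and Ddit4 overlap between sham and ICH in at least 1 genotype.

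Of the transcription factors, Ddit3 rose after ICH and Atf4 and Xbp1 did not pass the test. Atf4 (ENSMUSG00000042406), the transcription factor that gives the response its name, measured 137, 123 and 94.0 CPM in Sham-Fabp4fl_fl and 167, 121 and 117 CPM in ICH-Fabp4fl_fl. It measured 119, 115 and 102 CPM in Sham-Fabp4CKO and 175, 121 and 145 CPM in ICH-Fabp4CKO. Library 1 was the highest of its group in all 4 groups, the Fabp4fl_fl groups overlapped, and the 3 ICH-Fabp4CKO libraries lay above the 3 Sham-Fabp4CKO libraries. The log2 fold change after ICH was 0.21 in Fabp4fl_fl (standard error 0.22, adjusted p = 0.448) and 0.41 in Fabp4CKO (standard error 0.17, adjusted p = 0.0944). Without Sham-Fabp4fl_fl library 3 the first value was 0.0150 (adjusted p = 0.961). Without ICH-Fabp4CKO library 2, the Fabp4CKO value was 0.53 with an adjusted p of 0.00681.

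Ddit3 (ENSMUSG00000025408) encodes CHOP, a bZIP factor that ATF4 raises and that promotes cell death in lasting stress. It measured 20.6, 16.2 and 17.3 CPM in Sham-Fabp4fl_fl and 28.3, 30.1 and 25.9 CPM in ICH-Fabp4fl_fl. In the CKO mice it measured 18.8, 18.2 and 18.4 CPM after sham surgery and 33.9, 22.2 and 26.8 CPM after ICH. All 6 ICH libraries exceeded all 6 sham libraries. ICH gave a log2 fold change of 0.66 in Fabp4fl_fl (standard error 0.15, adjusted p = 0.0124) and 0.60 in Fabp4CKO (standard error 0.18, adjusted p = 0.0433). The Fabp4fl_fl call was lost without Sham-Fabp4fl_fl library 2 (adjusted p = 0.0712) and without ICH-Fabp4fl_fl library 2 (adjusted p = 0.0612).

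Xbp1 (ENSMUSG00000020484), the target of IRE1, measured 79.7, 79.1 and 135 CPM in Sham-Fabp4fl_fl and 178, 122 and 99.2 CPM in ICH-Fabp4fl_fl. In Sham-Fabp4CKO it measured 134, 148 and 129 CPM, and in ICH-Fabp4CKO 143, 93.5 and 149 CPM. Sham-Fabp4fl_fl library 3 stood with the Sham-Fabp4CKO libraries rather than with its own group, and sham and ICH overlapped in both genotypes. The log2 fold change after ICH was 0.46 (standard error 0.29, adjusted p = 0.228) in Fabp4fl_fl and -0.08 (standard error 0.20, adjusted p = 0.764) in Fabp4CKO. Without Sham-Fabp4fl_fl library 3 the first value was 0.71 (adjusted p = 0.0877).

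Both members with feedback and redox roles had CARE matches, yet they moved in opposite directions in Fabp4fl_fl mice. Trib3 (ENSMUSG00000032715) encodes a pseudokinase that is raised by ATF4 and CHOP and restrains them in turn. It measured 0.335, 0.552 and 1.73 CPM in Sham-Fabp4fl_fl, from 7, 10 and 33 reads, and 6.04, 4.48 and 2.66 CPM in ICH-Fabp4fl_fl. In Sham-Fabp4CKO it measured 1.37, 1.13 and 1.73 CPM and in ICH-Fabp4CKO 5.47, 2.29 and 5.33 CPM. All ICH libraries lay above all sham libraries, and Sham-Fabp4fl_fl library 3 was again at the level of the Sham-Fabp4CKO libraries. Trib3 had the largest change of the members, at 2.35 on the log2 scale in Fabp4fl_fl (standard error 0.62, adjusted p = 0.0193) and 1.64 in Fabp4CKO (standard error 0.40, adjusted p = 0.0273). Without Sham-Fabp4fl_fl library 3 the Fabp4fl_fl value was 3.26 (adjusted p = 0.00819). The call there was lost without Sham-Fabp4fl_fl library 1 (adjusted p = 0.0509), Sham-Fabp4fl_fl library 2 (0.0747), ICH-Fabp4fl_fl library 1 (0.0550) or ICH-Fabp4fl_fl library 2 (0.0621).

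Chac1 (ENSMUSG00000027313) encodes an enzyme that degrades glutathione, the main thiol antioxidant of the cell. It measured 5.98, 6.02 and 6.73 CPM in Sham-Fabp4fl_fl and 2.37, 3.45 and 4.52 CPM in ICH-Fabp4fl_fl. In the CKO mice it measured 6.67, 5.40 and 7.36 CPM after sham surgery and 5.34, 3.95 and 2.16 CPM after ICH. The ICH libraries lay below the sham libraries in both genotypes, narrowly so for ICH-Fabp4CKO library 1 and Sham-Fabp4CKO library 2. Chac1 fell in Fabp4fl_fl, by 0.84 on the log2 scale (standard error 0.28, adjusted p = 0.0427), and the value in Fabp4CKO was -0.75 (standard error 0.35, adjusted p = 0.127). The Fabp4fl_fl call held in 1 of the 6 fits that left out a library, that without ICH-Fabp4fl_fl library 3.

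The members for amino acid synthesis did not move together. Asns (ENSMUSG00000029752), asparagine synthetase, was almost the same in all sham libraries, with 106, 112 and 111 CPM in Sham-Fabp4fl_fl and 113, 111 and 113 CPM in Sham-Fabp4CKO. After ICH it measured 31.0, 41.1 and 65.0 CPM in Fabp4fl_fl and 51.4, 83.2 and 32.7 CPM in Fabp4CKO. All ICH libraries lay below all sham libraries, and the ICH libraries spread over a range far wider than the sham libraries. The log2 fold change was -1.25 in Fabp4fl_fl (standard error 0.26, adjusted p = 0.00819), a call that held in all 12 alternative fits. In Fabp4CKO it was -0.99 (standard error 0.33, adjusted p = 0.0566), and -1.41 with an adjusted p of 0.000449 without ICH-Fabp4CKO library 2.

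Markers of neurons moved with Asns and Chac1. The summed CPM of 8 neuronal markers (Rbfox3, Snap25, Syt1, Tubb3, Nefl, Nefm, Map2 and Syn1) ranged from 4320 to 5577 in Sham-Fabp4fl_fl and from 4741 to 4990 in Sham-Fabp4CKO. After ICH it was 1248, 2019 and 2985 in Fabp4fl_fl libraries 1, 2 and 3 and 1811, 3769 and 1340 in Fabp4CKO libraries 1, 2 and 3. Within each ICH group Asns ranked the 3 libraries in the same order as this sum, and Chac1 did so in ICH-Fabp4fl_fl but not in ICH-Fabp4CKO. Of the 8 markers, 7 fell in Fabp4fl_fl (median log2 fold change -1.27) and 2 in Fabp4CKO (median -1.16), and none was at 0. The part of this shift in the values of Asns and Chac1 was not tested.

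**Figure D2:**
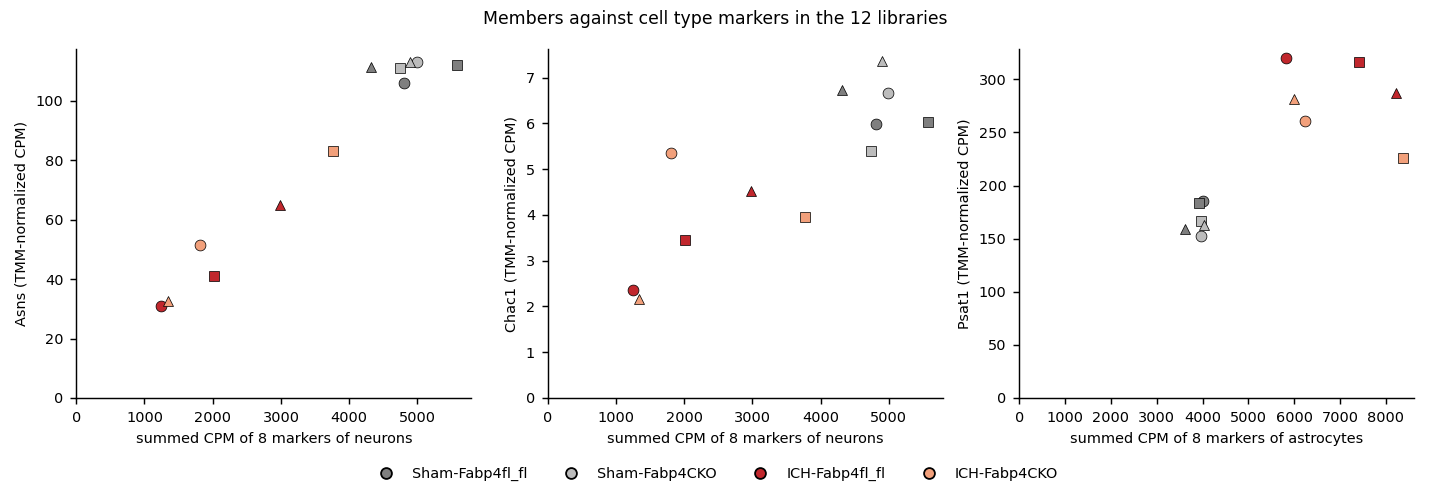
Each of the 12 libraries is a point, with the TMM-normalized CPM of Asns, Chac1 or Psat1 on the vertical axis and the summed CPM of 8 neuronal or 8 astrocytic markers on the horizontal axis (circle, square and triangle for library 1, 2 and 3). In the Asns panel the ICH libraries run from 31.0 CPM at a neuronal sum of 1248 to 83.2 CPM at 3769, and in the Psat1 panel all ICH libraries lie to the right of and above all sham libraries, the shift to the right being carried by Gfap (without it the sums were 3484 to 3889 in sham and 1700 to 5465 in ICH).

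Psat1 (ENSMUSG00000024640), phosphoserine aminotransferase of the serine pathway, rose in both genotypes. It measured 186, 183 and 159 CPM in Sham-Fabp4fl_fl and 320, 316 and 287 CPM in ICH-Fabp4fl_fl. In Sham-Fabp4CKO it measured 153, 167 and 163 CPM and in ICH-Fabp4CKO 261, 226 and 281 CPM. All 6 ICH libraries exceeded all 6 sham libraries, and within ICH the 3 Fabp4CKO libraries were below the 3 Fabp4fl_fl libraries. The log2 fold change was 0.82 in Fabp4fl_fl (standard error 0.15, adjusted p = 0.00535), called in all 12 alternative fits, and 0.69 in Fabp4CKO (standard error 0.14, adjusted p = 0.0152). The summed CPM of 8 astrocytic markers was 3614 to 4040 over the sham libraries and 5828 to 8382 over the ICH libraries, with 3 of the 8 (Gfap, Aqp4 and Aldh1l1) higher in each genotype and none at 0. Gfap, a filament protein of reactive astrocytes, carried that rise, with 255 ± 133 CPM in Sham-Fabp4fl_fl and 4149 ± 68.6 CPM in ICH-Fabp4fl_fl (SD, n = 3). The median log2 fold change of the 8 was 0.0023 in Fabp4fl_fl and 0.17 in Fabp4CKO. Without Gfap the other 7 summed to 3484 to 3889 CPM over the sham libraries and 1700 to 5465 CPM over the ICH libraries, which overlap. Within each ICH group Psat1 was lowest in the library with the highest sum, with or without Gfap. The part of astrocytic RNA in the change of Psat1 was not tested.

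Phgdh (ENSMUSG00000053398), phosphoglycerate dehydrogenase, catalyses the entry step of the same serine pathway. It measured 105, 93.2 and 96.0 CPM in Sham-Fabp4fl_fl and 107, 111 and 132 CPM in ICH-Fabp4fl_fl, so that the groups were apart by a small gap. In Sham-Fabp4CKO it measured 93.1, 116 and 92.1 CPM and in ICH-Fabp4CKO 84.7, 125 and 78.1 CPM. Here the groups overlapped, and library 2 was the highest of both. For Phgdh the log2 fold change was 0.26 in Fabp4fl_fl (standard error 0.15, adjusted p = 0.169) and -0.05 in Fabp4CKO (standard error 0.22, adjusted p = 0.858).

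Of the inhibitors of the growth kinase complex mTORC1, Sesn2 rose in both genotypes and Ddit4 in neither. Sesn2 (ENSMUSG00000028893), a leucine sensor that holds mTORC1 down, measured 15.8, 14.5 and 14.4 CPM in Sham-Fabp4fl_fl and 21.6, 22.1 and 18.0 CPM in ICH-Fabp4fl_fl. In Sham-Fabp4CKO it measured 15.8, 12.8 and 15.3 CPM and in ICH-Fabp4CKO 26.2, 17.0 and 30.02 CPM. All ICH libraries lay above all sham libraries. The log2 fold change was 0.48 in Fabp4fl_fl (standard error 0.15, adjusted p = 0.0348) and 0.76 in Fabp4CKO (standard error 0.23, adjusted p = 0.0466). Both calls were near the threshold, and each held in 4 of 12 alternative fits.

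Ddit4 (ENSMUSG00000020108), also known as REDD1, acts on mTORC1 through the TSC complex and is also raised by hypoxia and glucocorticoids. It measured 37.3, 33.1 and 16.4 CPM in Sham-Fabp4fl_fl and 58.7, 30.4 and 28.1 CPM in ICH-Fabp4fl_fl. In Sham-Fabp4CKO it measured 24.97, 27.5 and 14.7 CPM and in ICH-Fabp4CKO 16.4, 23.6 and 18.5 CPM. Library 3 was the lowest in both sham groups, ICH-Fabp4fl_fl library 1 was the highest of all, and sham and ICH overlapped in both genotypes. For Ddit4 the log2 fold change was 0.45 in Fabp4fl_fl (standard error 0.39, adjusted p = 0.367) and -0.18 in Fabp4CKO (standard error 0.27, adjusted p = 0.605). Without Sham-Fabp4fl_fl library 3 the first value was 0.11 (adjusted p = 0.817).

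**Figure D3:**
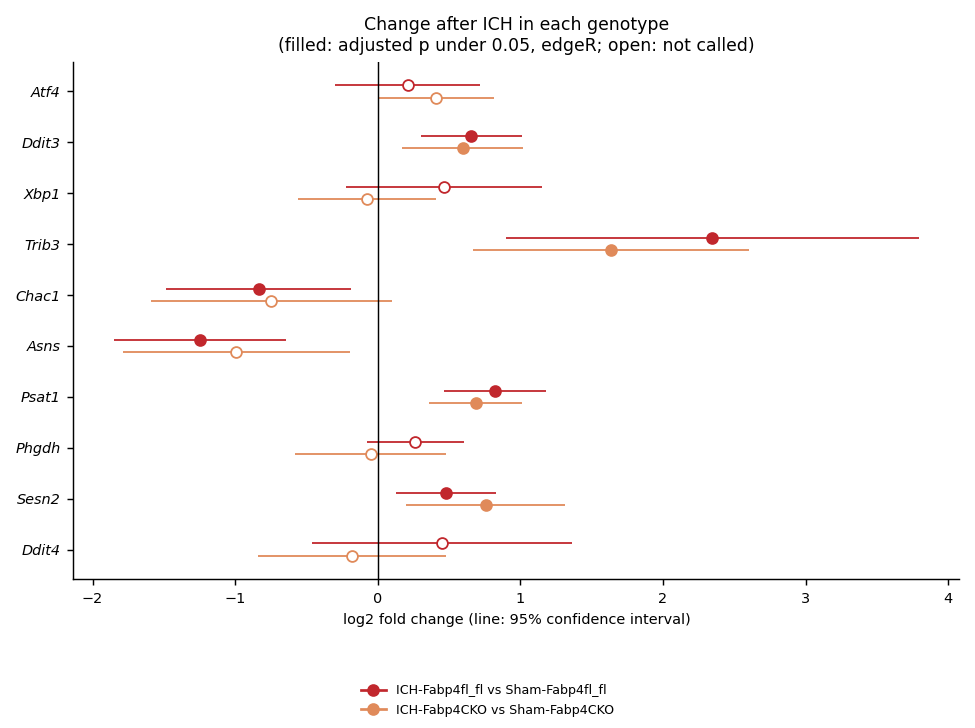
Log2 fold change of ICH against sham for the 10 genes in Fabp4fl_fl (dark red) and Fabp4CKO mice (orange), with 95% confidence intervals, filled points for an adjusted p under 0.05 and open points for the rest. Trib3 lies farthest to the right (2.35 and 1.64) and Asns farthest to the left (-1.25 and -0.99).

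In Fabp4fl_fl the count of 6 called members was 3 without Sham-Fabp4fl_fl library 1, 2 without Sham-Fabp4fl_fl library 2, 4 without Sham-Fabp4fl_fl library 3 (Chac1 and Sesn2 were lost, with adjusted p of 0.0886 and 0.114), 3 without ICH-Fabp4fl_fl library 1 and 2 without ICH-Fabp4fl_fl library 2. In Fabp4CKO the count of 4 was 0 without any 1 of the Sham-Fabp4CKO libraries or without ICH-Fabp4CKO library 1, and 1 without ICH-Fabp4CKO library 3. It was 6 without ICH-Fabp4CKO library 2, when Asns and Atf4 were called too, Trib3 had a log2 fold change of 1.94 (adjusted p = 0.000471) and Sesn2 of 0.96 (adjusted p = 0.000624). That library lay nearer the sham libraries than its own group, so a fit without it tends to widen the change. The share of all genes called in these fits with 1 library left out is not given here. The counts therefore do not show a trait particular to the members. In Fabp4CKO, Psat1 was called in 8 of the 12 alternative fits, Trib3 in 7 and Ddit3 in 4. Asns, which missed the threshold there, was called lower in 4 of the 12.

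Other genes of the pathway were counted in 10 lists that hold 98 tested genes besides the members. After ICH, 40 of them rose and 4 fell in Fabp4fl_fl, and 35 rose and 3 fell in Fabp4CKO. Between the sham groups 95 were tested, and a fall of genes that passed the filter only through the ICH libraries could hardly be seen. Over all genes tested, 26.2% rose and 19.3% fell in Fabp4fl_fl, and 24.5% rose and 11.1% fell in Fabp4CKO. The list counts that follow, those of cell markers included, are to be read beside these shares. Of the kinases that start the response, only Eif2ak2, which encodes the double-stranded RNA sensor PKR, passed the test. It went from 5.62 ± 2.21 to 33.4 ± 7.72 CPM (SD, n = 3) in Fabp4fl_fl, a rise of 2.59 on the log2 scale (adjusted p = 0.00126), with 3.09 in Fabp4CKO (adjusted p = 0.00549). Eif2ak1 (HRI), Eif2ak3 (PERK) and Eif2ak4 (GCN2) had log2 fold changes of -0.27, -0.24 and -0.33 in Fabp4fl_fl, with adjusted p of 0.136, 0.189 and 0.113. Of the 8 subunits of eIF2 and its exchange factor eIF2B, Eif2s1, which encodes eIF2 alpha itself, and Eif2s2 rose in both genotypes (0.69 and 0.92 in Fabp4fl_fl). None of the 5 phosphatase subunits that reverse the phosphorylation passed in Fabp4fl_fl, where Ppp1r15a (GADD34) had 0.62 with an adjusted p of 0.0534. In Fabp4CKO, Ppp1r15a (0.60) and Ppp1r15b (0.53) rose.

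All 9 bZIP partners of ATF4 and related stress factors rose in both genotypes, with a median log2 fold change of 2.76 in Fabp4fl_fl and 2.81 in Fabp4CKO. Between the sham groups 8 of the 9 were tested. A fall of a gene that passed the filter on low counts only through the ICH libraries could hardly be seen. Atf3, an early stress factor, went from 1.35 ± 0.583 to 40.1 ± 16.6 CPM in Fabp4fl_fl (log2 fold change 4.89, adjusted p = 0.000425). Nupr1, a small chromatin-associated stress protein, had 3.98 in Fabp4fl_fl and 3.13 in Fabp4CKO. Nfe2l2, which encodes the antioxidant regulator NRF2, had 1.95 and 2.81. The Atf4 mRNA, at 0.21 and 0.41, lay below each of these 3 genes.

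Among other enzymes of serine, one-carbon, proline and alanine metabolism, 5 of 11 rose in Fabp4fl_fl and 4 in Fabp4CKO, and none fell. Among them were the mitochondrial folate enzymes Aldh1l2, with a log2 fold change of 3.08 and 2.61 in Fabp4fl_fl and Fabp4CKO, and Shmt2, with 1.33 and 1.02. Mthfd2, of the same mitochondrial pathway, had 1.01 in Fabp4fl_fl. Of 9 amino acid transporters, 4 rose and 1 fell in Fabp4fl_fl, and 3 rose and 2 fell in Fabp4CKO. Slc1a5, a glutamine transporter, rose by 3.44 and 3.48, and Slc3a2, the heavy chain shared by several amino acid exchangers, by 1.18 and 1.16 on the log2 scale. Slc7a3, a cationic amino acid transporter, had -1.80 and -2.19. The cytosolic tRNA synthetases, classical ATF4 targets, showed 2 higher (Vars, 0.75, and Lars, 0.41) and 1 lower (Yars, -0.56) of 13 in Fabp4fl_fl, and the same 3 genes passed in Fabp4CKO. Their median was 0.02 in Fabp4fl_fl, equal to that of all genes.

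Of the other targets of ATF4 or CHOP, 5 of 12 rose and 1 fell in Fabp4fl_fl and 5 rose in Fabp4CKO. Between the sham groups 10 were tested. A gene that passed the filter on low counts only through the ICH libraries could hardly be seen to fall, yet it counts among those tested. Eif4ebp1, a brake on cap-dependent translation, went from 1.37 ± 0.468 to 22.7 ± 12.1 CPM in Fabp4fl_fl. Gdf15, a stress hormone, averaged 0.0728 CPM in Sham-Fabp4fl_fl and 5.09 in ICH-Fabp4fl_fl, and Cdsn, which encodes corneodesmosin, averaged 0.172 and 9.06 CPM. The sham levels of both lie close to the least these depths can show, so no fold change is given. Among the sensors of the unfolded protein response, Ern1, which encodes IRE1, and Creb3l2 rose in both genotypes (2 of 7 tested). Of 20 chaperone and degradation genes of the endoplasmic reticulum, known as XBP1 and ATF6 targets, 10 rose and 1 fell (Sel1l) in Fabp4fl_fl, and 5 rose in Fabp4CKO. Edem1, which sends misfolded glycoproteins to degradation, had 2.18 and 3.20, whereas Hspa5 (BiP), the most used marker of this response, had 0.29 (adjusted p = 0.466) and 0.52 (adjusted p = 0.248). Sdf2l1 had 1.95 and Sec61b 1.33 in Fabp4fl_fl.

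In 3 lists for other signals that also act on Ddit4, Sesn2 and Trib3, 28 genes were tested, of which 14 rose and 1 fell in Fabp4fl_fl and 14 rose in Fabp4CKO. Between the sham groups 27 were tested, so the same limit holds here. Of all genes tested, 26.2% rose in Fabp4fl_fl and 24.5% in Fabp4CKO. Of 10 hypoxia targets 5 rose in Fabp4fl_fl and 6 in Fabp4CKO, among them Hk2 (3.18 and 3.90). Of 9 glucocorticoid targets 3 rose and 1 fell in Fabp4fl_fl and 4 rose in Fabp4CKO, among them the metallothionein Mt2 (3.11 and 1.74). Of 9 p53 targets, a group to which Sesn2 is also assigned, 6 rose in Fabp4fl_fl and 4 in Fabp4CKO, with Cdkn1a at 2.82 and 2.96.

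**Figure D4:**
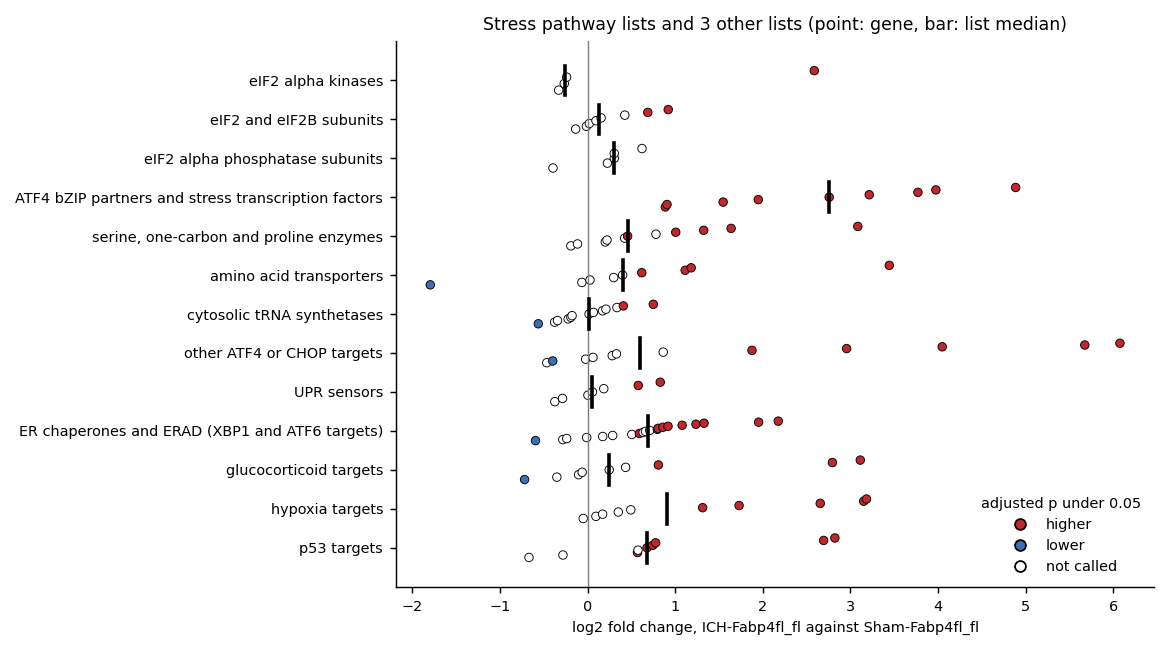
Log2 fold change of ICH-Fabp4fl_fl against Sham-Fabp4fl_fl for each tested gene of the 10 stress pathway lists and the 3 lists of other signals, red where it rose, blue where it fell and white where the adjusted p was 0.05 or more, with a black bar at the median of each list. The bZIP partners form the list with the highest median (2.76), and the tRNA synthetases lie around 0 (0.02).

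Markers of other cells also moved with ICH in the tissue. Summed CPM of 7 microglial markers was 331 to 391 in the sham libraries, 1183 to 1289 in ICH-Fabp4fl_fl and 1358 to 4031 in ICH-Fabp4CKO, and 6 of the 7 rose in each genotype. Of 8 markers of monocytes and macrophages 7 rose in each genotype, from sums of 3.40 to 9.48 CPM in the sham libraries to 123 to 794 CPM after ICH. Neutrophil markers summed to 5.34 to 13.1 CPM in sham libraries and 56.7 to 272 CPM after ICH. All neutrophil markers tested rose (6 in Fabp4fl_fl and 7 in Fabp4CKO), and 1 of the 8 listed was at 0 in every ICH-Fabp4fl_fl library. Between the sham groups, only 3 of 8 neutrophil markers and 3 of 8 monocyte and macrophage markers passed the filter on low counts. Any others that were tested passed it through the ICH libraries, so a fall of them could hardly be seen. Markers of pericytes and smooth muscle rose in 5 of 5 and 4 of 5 cases, those of oligodendrocyte precursors in 3 and 2 of 5. All 6 endothelial markers rose in Fabp4fl_fl and 2 of 6 in Fabp4CKO. The part of these cells in the values of Ddit3, Trib3, Sesn2 and the other stress genes was not tested.

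Deletion of Fabp4 in microglia was then compared within ICH. No member passed the adjusted threshold between ICH-Fabp4CKO and ICH-Fabp4fl_fl, as none of the 14600 genes tested did (0.0% called), although DESeq2 called 578 genes over all and 0 of the members. At an unadjusted p under 0.05, 1 of 10 members passed, against 12.2% of all genes. The groups did not overlap for 2 members, Ddit4 and Psat1, against 19.8% of all genes. The member that passed was Ddit4, with 39.1 ± 17.1 CPM in ICH-Fabp4fl_fl and 19.5 ± 3.71 CPM in ICH-Fabp4CKO (SD, n = 3). Its log2 fold change was -1.01 (standard error 0.33, 95% confidence interval -1.80 to -0.21, adjusted p = 0.350), and -0.58 without ICH-Fabp4fl_fl library 1. Psat1 had -0.27 (95% confidence interval -0.69 to 0.15, adjusted p = 0.559). These libraries also serve in the comparisons with sham, so the values are not independent of those above.

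For the other members the interval of the difference between the ICH groups included 0. Ddit3 had a log2 fold change of -0.03 (95% confidence interval -0.50 to 0.44) and Atf4 of 0.12 (-0.43 to 0.67). The intervals of Trib3 (-1.10 to 1.07), Chac1 (-0.87 to 1.15) and Asns (-0.71 to 1.27) reached past 1 on the log2 scale in at least 1 direction, so a change of that size in that direction is not excluded. Sesn2 had 0.24 (-0.34 to 0.82), Phgdh -0.29 (-0.84 to 0.27) and Xbp1 -0.06 (-0.75 to 0.64). Of the 98 other pathway genes, 0 passed the adjusted threshold of edgeR and 9 an unadjusted p under 0.05. Without ICH-Fabp4CKO library 2 the estimates moved to -0.13 for Asns, 0.29 for Trib3, 0.44 for Sesn2, -0.52 for Phgdh and -1.17 for Ddit4, and again no member passed the adjusted threshold.

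Oligodendrocyte markers differed between the ICH groups, with a summed CPM of 7 markers of 18880 to 27240 in ICH-Fabp4fl_fl and 7422 to 11710 in ICH-Fabp4CKO. The 7 log2 fold changes were all below 0 (median -1.19). Endothelial markers also lay apart, with all 6 lower and sums of 494 to 967 CPM in ICH-Fabp4fl_fl against 275 to 340 CPM in ICH-Fabp4CKO (median -1.23). The 7 neutrophil markers tested had log2 fold changes above 0 (median 1.92), with sums of 56.7 to 112 CPM and 75.9 to 272 CPM. Of the 8 astrocytic markers, 4 had log2 fold changes above 0 and 4 below (median -0.16). Their sums overlapped, with 5828 to 8217 CPM in ICH-Fabp4fl_fl and 6005 to 8382 CPM in ICH-Fabp4CKO. No marker of these lists passed the adjusted threshold of edgeR. The part of these shifts in the lower values of Ddit4 and Psat1 was not tested.

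Between the sham groups, 0 of 10 members passed the adjusted threshold, against 0.111% of 14395 genes. At an unadjusted p under 0.05, 1 passed, against 10.2% of all genes, and no member's groups were apart, against 14.9%. DESeq2 also called 0 members. The member was Xbp1, with 98.0 ± 32.2 CPM in Sham-Fabp4fl_fl and 137 ± 9.66 CPM in Sham-Fabp4CKO, which is 0.48 on the log2 scale (standard error 0.20, adjusted p = 0.484). This value rests on how Sham-Fabp4fl_fl library 3 is treated. Without it, Xbp1 had 0.78 (adjusted p = 0.00114) and Trib3 1.66 (adjusted p = 0.0326), both higher in Sham-Fabp4CKO. That library lay nearer Sham-Fabp4CKO than its own group, so a fit without it tends to widen this difference. The share of all genes called in that fit is not given here. Asns was the tightest member, with 0.03 (95% confidence interval -0.14 to 0.20), and Psat1 had -0.14 (-0.36 to 0.08).

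The change after ICH was not found to differ between the genotypes for any member. In the interaction of ICH and genotype over all 12 libraries, 0 of 10 members passed the adjusted threshold, against 0.0199% of 15089 genes, and 0 passed at an unadjusted p under 0.05, against 9.94%. DESeq2 also called 0 members. The largest estimates were those of Trib3, -0.76 (95% confidence interval -2.50 to 0.97, adjusted p = 0.783), Ddit4, -0.68 (-1.87 to 0.51, adjusted p = 0.710), and Xbp1, -0.59 (-1.46 to 0.28, adjusted p = 0.655). A negative value means a lower log2 fold change after ICH in Fabp4CKO than in Fabp4fl_fl. For Ddit4 and Xbp1 the Fabp4CKO estimates were themselves below 0, at -0.18 and -0.08. The narrowest interval was that of Psat1, from -0.59 to 0.23 around -0.18. Apart from the alternative fits, Asns and Chac1 were called in Fabp4fl_fl alone, which does not show a difference between genotypes. Their interactions were 0.22 (adjusted p = 0.903) and 0.06 (adjusted p = 0.982).

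**Figure D5:**
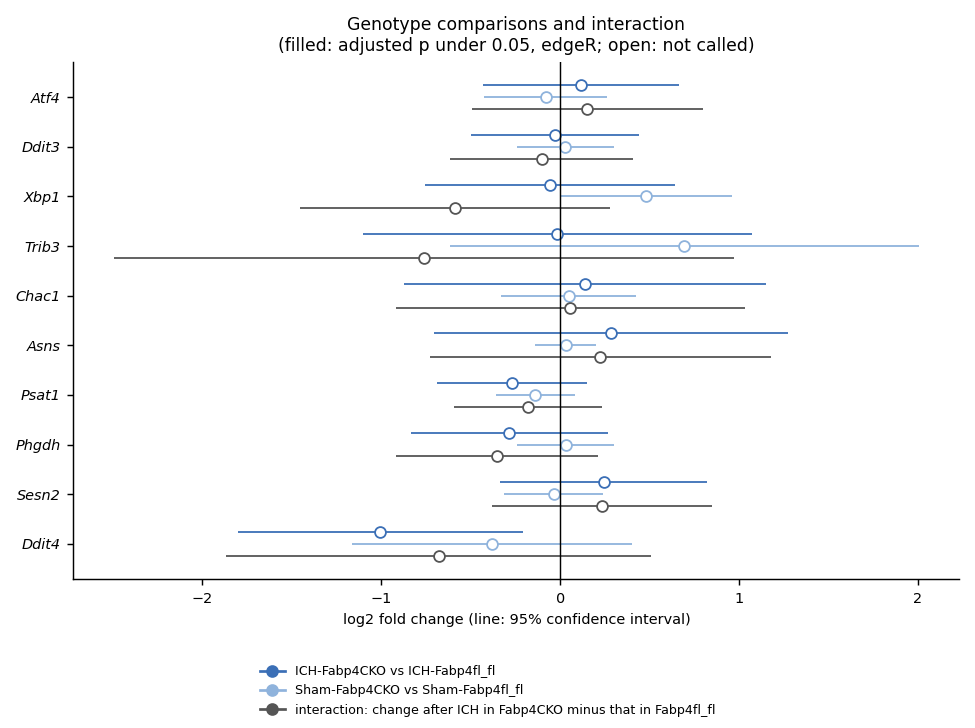
Log2 fold change of Fabp4CKO against Fabp4fl_fl within ICH (dark blue) and within sham (light blue), and the interaction of ICH and genotype (grey), for the 10 genes with 95% confidence intervals. All points are open, as no member passed the adjusted threshold, and the intervals of Ddit4 within ICH (-1.80 to -0.21) and of Xbp1 within sham (0.00497 to 0.957) are those that leave out 0.

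Some genes followed the members closely over the 12 libraries, by Pearson's r of log2 CPM among 15088 other genes. These correlations describe libraries that share the ICH and sham contrast. The genes most like Asns were Rasgrf1 (r = 0.998), Prrt3 (0.997) and Trim32 (0.997), of which Rasgrf1 encodes a neuronal activator of Ras. Chac1 was followed by Lancl3, Chrm2 and Jrk (0.953 to 0.973). Psat1 was followed by Rab29, Nde1 and Igfbp7 (0.987 to 0.990), and Sesn2 by Ikbip, Capza1 and Haus8 (0.987 to 0.989). Ddit3 was most like Acap1, Il27ra and Traf2 (0.975 to 0.982). Trib3 was most like Jak2, Pdia4 and Scarb1 (0.961 to 0.981), of which Pdia4, an ER chaperone, is also on the list of XBP1 and ATF6 targets. Ddit4 had Erg28, R3hcc1 and Prom1 (0.925 to 0.961), and Atf4 had Zfp958, Ier2 and Tmem202 (0.919 to 0.936). The members that did not rise or fall had the loosest companions, with U2af1l4, Acsbg1 and Slc25a35 for Phgdh (0.869 to 0.906) and Sfpq, Exosc10 and Tmem214 for Xbp1 (0.874 to 0.913).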

How the data were processed

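RNA was measured in 12 libraries, grouped by the labels' titles. The authors deposited expected counts (estimated read counts) per gene without normalization, of which 7.36% to 8.69% per library were not whole. The submitters' processing notes name Bowtie2 2.2.8, HISAT2, StringTie 1.3.1 and DESeq2. The counting tool, genome build and annotation behind the counts are not given in the sources used here. An estimator of this kind can share reads between similar genes.

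Counts were rounded. Each comparison was fitted on its 6 libraries, and the interaction on all 12, with edgeR 4.0.16 in R 4.3.3 (TMM, filterByExpr, quasi-likelihood F-test). P-values were adjusted by Benjamini-Hochberg over all genes tested, at a threshold of 0.05. The filter asked for a level near 10 counts in as many libraries as the smallest group holds, and 15 counts in total. A gene could thus pass through 1 group alone. The scripts were tested on simulated data. The closest libraries still differed by a chi-square per degree of freedom of 7.02, so none was a copy. Log2 CPM for the correlations used a prior count of 2, and exon lengths for CPM per kb came from a GRCm38 annotation. Alternatives were RLE factors, total counts, DESeq2 1.42.0, no filter on low counts, a replicate block, 1 fit of all 12 libraries and each library left out.

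The members and lists were chosen with earlier results of these data known. Genes named are the members, up to 3 genes with the smallest p in ICH-Fabp4fl_fl of each other list, the eIF2 alpha kinases, Fabp4, the markers and the 3 genes most like each member. Hspa5 and Sel1l were chosen after their values were seen. Figures used matplotlib 3.10.9.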

Additional observations from a re-analysis of the deposited data

How the results depend on the processing

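Members called in Fabp4CKO against sham fell from 4 to 2 with total counts and to 2 with no filter on low counts, and the cause was not tested. Over all genes the main fit there called 3605 higher and 1643 lower of 14737. Total counts gave 3264 and 1385 of 14737, and no filter gave 3461 and 1677 of 17901. Leaving out 1 library gave 2 to 6 called members in Fabp4fl_fl, 0 to 6 in Fabp4CKO, 0 between the ICH groups, 0 to 2 between the sham groups and 0 in the interaction. The counts with 1 library left out stand without the share of all genes called in the same fits. Psat1 and Asns in Fabp4fl_fl were called in all 12 alternatives, and Chac1 and Sesn2 there in 6 and 4. Over all genes, ICH-Fabp4CKO against ICH-Fabp4fl_fl gave 0 calls in edgeR, 255 higher and 323 lower with DESeq2, and 154 and 208 with all 12 libraries in 1 fit. Between the sham groups 16 calls became 11 higher and 139 lower with DESeq2, and in the interaction 3 calls became 183 and 83. For Fabp4CKO against sham, 3605 higher and 1643 lower became 4154 and 3541 with DESeq2.

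Replicate numbers were shared between groups, and the correlation of same-numbered libraries was not over 0.1 for every pair, so the numbers were not taken as pairing. The correlations ran from 0.0231 to 0.196 in Fabp4fl_fl (mean 0.115, against -0.0571 for other pairs, and each of the 3 numbers was best matched by its own, a hint from the data and not from the design) and from -0.00772 to -0.00439 in Fabp4CKO. Between the ICH groups they ran from -0.575 to 0.311, and between the sham groups from -0.175 to 0.0619. With the replicate number as a block, 6 members were called in Fabp4fl_fl, 3 in Fabp4CKO and 0 elsewhere. Over all genes the block gave 3967 higher and 3295 lower of 14719 in Fabp4fl_fl. In Fabp4CKO it gave 2577 higher and 1104 lower of 14737, against 3605 and 1643 without the block. It gave 0 calls between the ICH groups, 11 lower between the sham groups and 1 higher in the interaction.

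Directions changed for some members that were not called. Between the sham groups with total counts, Ddit3, Asns and Phgdh had log2 fold changes of -0.00296, -0.000449 and -0.00484. Over all the alternatives, other settings and single libraries left out together, the log2 fold change in Fabp4CKO ran from -0.22 to 0.10 for Xbp1 and from -0.29 to 0.0675 for Phgdh. Between the ICH groups it ran from -0.27 to 0.22 for Xbp1, -0.20 to 0.10 for Ddit3, -0.18 to 0.42 for Chac1, -0.13 to 0.59 for Asns, -0.33 to 0.29 for Trib3 and -0.0273 to 0.30 for Atf4. Between the sham groups it ran from -0.0413 to 0.14 for Ddit3, -0.0658 to 0.16 for Chac1, -0.10 to 0.0517 for Sesn2, -0.22 to 0.0369 for Atf4 and -0.0898 to 0.0784 for Phgdh. In the interaction it ran from -0.26 to 0.0283 for Ddit3, -0.25 to 0.34 for Chac1 and -0.19 to 0.54 for Asns. The 3 libraries a group limit what can be seen, and the intervals of the genotype comparisons give that limit for each gene.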
